A study of Mus musculus with 4 samples.

Results

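MHC class II presentation genes were followed in urethane-induced lung tumors and non-tumor lung of mice with and without the transcription factor gene Nrf2 (Nfe2l2). The set lists 10 genes: H2-Aa, H2-Ab1, H2-Eb1, H2-DMa, H2-DMb1, H2-DMb2, H2-Oa, H2-Ob, Cd74 and Ciita. A probe was taken for a gene when the transcript accession given with it belonged to that gene in RefSeq. This found 13 of the 41170 probes used, for 9 of the 10 genes: 3 probes for H2-Ab1, 2 each for H2-Aa and H2-DMb1 and 1 each for the other 6. No probe was matched to H2-Eb1, which is not analysed here. Every one of the 9 was well above background on 3 or all 4 arrays.

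The 4 groups were Nrf2-/- tumor, Nrf2+/+ tumor, Nrf2-/- non-tumor lung and Nrf2+/+ non-tumor lung. All animals were female ICR mice, an outbred stock, aged 6 months, and all had been given urethane (ethyl carbamate, a lung carcinogen) at 1 g per kg of body weight into the peritoneum, with tissue collected 16 weeks later. The tumors measured between 1.0 and 1.5 mm across. RNA of 8 mice was pooled for each group and put on 1 Agilent whole-genome array, so that no group has a replicate and every difference below compares a pair of pools. The Nrf2 line is described only as Nrf2-/-, and the labels do not say how its ICR background was made.

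MHC class II molecules are pairs of an alpha and a beta chain that show peptides from engulfed proteins to CD4+ T cells. The invariant chain Cd74 fills the groove of new class II molecules and takes them to the endosome, where cathepsins degrade it. The chaperone DM then exchanges its last fragment for peptide, and DO restrains DM. The coactivator Ciita, which interferon gamma induces in many cell types, switches the whole set on through a common promoter module. In the lung dendritic cells, B cells, macrophages and alveolar type 2 cells are known to carry class II molecules. The genes of the class II chains are among the most variable between mouse haplotypes.

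Promoter windows searched for parts of the common module are shown for H2-Aa and H2-DMb1, which were higher in tumors, and for H2-Ob, which was dim and was not. None of these windows held a match to all 3 motifs described next. Sequences are the RefSeq promoter windows (build GRCm38.p6), from 250 bases before to 50 after the start of the gene, written 5′ to 3′ on the strand of the gene. Capitals mark 3 short motifs found on either strand: ATTGG, the inverted CCAAT core of the Y box, AGCAAC, a core of the X1 box, and TGACGT or TGCGTC, cores of the X2 box; overlapping copies are joined. H2-Aa lies at chr17:34287774-34288073 on the minus strand, H2-DMb1 at chr17:34152941-34153240 on the plus strand and H2-Ob at chr17:34238655-34238954 on the plus strand.
H2-Aa: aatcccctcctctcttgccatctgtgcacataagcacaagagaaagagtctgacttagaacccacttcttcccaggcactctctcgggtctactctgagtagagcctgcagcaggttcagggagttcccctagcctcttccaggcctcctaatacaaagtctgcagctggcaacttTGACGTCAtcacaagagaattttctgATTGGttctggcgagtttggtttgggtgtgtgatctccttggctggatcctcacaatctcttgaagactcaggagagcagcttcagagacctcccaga
H2-DMb1: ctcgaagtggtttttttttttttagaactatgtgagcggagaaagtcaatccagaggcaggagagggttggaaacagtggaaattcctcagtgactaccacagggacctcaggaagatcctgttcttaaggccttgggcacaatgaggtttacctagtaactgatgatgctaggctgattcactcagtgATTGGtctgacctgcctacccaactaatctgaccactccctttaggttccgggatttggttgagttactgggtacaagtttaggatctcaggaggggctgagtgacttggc
H2-Ob: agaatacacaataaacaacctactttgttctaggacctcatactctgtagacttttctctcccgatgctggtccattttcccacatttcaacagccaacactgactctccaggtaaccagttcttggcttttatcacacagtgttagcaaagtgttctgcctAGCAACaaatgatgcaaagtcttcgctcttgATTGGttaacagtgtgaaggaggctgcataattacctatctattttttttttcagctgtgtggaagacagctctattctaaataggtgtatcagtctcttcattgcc
In the H2-Aa window ATTGG began 48 bases before the gene start and overlapping copies of TGACGT, one on each strand, began 74 and 72 bases before it. In H2-DMb1 ATTGG began 61 bases before the start. In H2-Ob AGCAAC began 88 bases and ATTGG 57 bases before it. Of the 8 promoter windows held for 7 of the listed genes, 7 had ATTGG, against 37.4% of all 32851 windows, and 6 had it between 100 and 25 bases before the start, against 16.7%. AGCAAC stood in 3 of the 8 (14.8% of all windows) and an X2 core in 1 (13.7% of all windows). H2-Ab1, Cd74 and Ciita are not in that table. A match is a run of letters and no measure of binding.

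The arrays were of similar quality, and the labels held against the targeted gene. Between 54.2% and 63.5% of spots were well above background, no spot was saturated, and each array was scaled on its own 75th percentile of signal, which was 584 for Nrf2-/- tumor, 555 for Nrf2+/+ tumor, 742 for Nrf2-/- non-tumor lung and 760 for Nrf2+/+ non-tumor lung. Signals are given below as deposited and differences on the log2 scale after that scaling. On its brighter probe Nfe2l2 had a signal of 6.94 in Nrf2-/- tumor and 7478 in Nrf2+/+ tumor. It read 5.13 for Nrf2-/- non-tumor lung and 7913 for Nrf2+/+ non-tumor lung, and was not well above background in either Nrf2-/- pool. This makes it at least 268-fold lower in tumor and 376-fold lower in non-tumor lung of Nrf2-/- mice. On its other probe these bounds were 220-fold and 292-fold. The type 2 cell marker Sftpc was bright on all 4 arrays, with signals between 251628 and 276632. The Nrf2+/+ non-tumor array was alone on slide 1 and the other 3 arrays shared slide 2. The Nrf2+/+ tumor difference and the non-tumor genotype difference therefore cross slides, and slide cannot be told apart from group in them. The Nrf2-/- tumor difference and the tumor genotype difference lie within slide 2.

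The first question was how tumors differed from the lung around them. The classical chains, the invariant chain and DM were higher in tumor in both genotypes, on every probe. Over the 9 probes of H2-Aa, H2-Ab1, H2-DMa, H2-DMb1 and Cd74 the tumor difference lay between 0.64 and 0.93 in Nrf2-/- mice (1.56-fold to 1.90-fold) and between 0.83 and 1.39 in Nrf2+/+ mice (1.78-fold to 2.62-fold). The scanner software's own error of these differences was 0.20, which covers measurement of a spot and nothing between animals. H2-DMb2 differed less, and H2-Oa, Ciita and H2-Ob did not share that pattern.

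H2-Aa encodes the alpha chain of the class II molecule I-A. Its probe A_51_P119760 read 15637 for Nrf2-/- tumor, 15850 for Nrf2+/+ tumor, 11903 for Nrf2-/- non-tumor lung and 10721 for Nrf2+/+ non-tumor lung. Both tumor pools were above both non-tumor pools, by 0.74 in Nrf2-/- mice and 1.02 in Nrf2+/+ mice. Its probe A_52_P343306 read 21299, 10635, 15455 and 6506 in the same order of groups. On this probe the tissues overlapped, since Nrf2+/+ tumor minus Nrf2-/- non-tumor lung was -0.12, within the software error, although the tumor difference within each genotype was much the same as on the first probe, 0.81 in Nrf2-/- mice and 1.16 in Nrf2+/+ mice.

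H2-Ab1 encodes the beta chain that pairs with H2-Aa. Probe A_51_P215237 was printed on 10 spots, of which 9 or 10 per array were free of outlier flags, and read 26916 ± 671 (SD, 9 spots) in Nrf2-/- tumor, 12236 ± 439 (SD, 9 spots) in Nrf2+/+ tumor, 21651 ± 789 (SD, 10 spots) in Nrf2-/- non-tumor lung and 9438 ± 444 (SD, 10 spots) in Nrf2+/+ non-tumor lung. The spots of one array thus differed far less than the arrays did, but they share a single RNA pool. On this probe, too, Nrf2-/- non-tumor lung stood above Nrf2+/+ tumor. On the other 2 probes both tumor pools were above both non-tumor pools. The smallest of these gaps on A_51_P215242, Nrf2+/+ tumor minus Nrf2-/- non-tumor lung, was 0.17, which turns to -0.03 with spike-in scaling. Probe A_51_P215242 read 16638, 11398, 13518 and 8404 in the same order, and probe A_52_P683598 read 77982, 68350, 62505 and 50864. The tumor differences of the 3 probes were 0.66, 0.64 and 0.66 in Nrf2-/- mice and 0.83, 0.89 and 0.88 in Nrf2+/+ mice. All 3 probes therefore gave nearly 1 value for the tumor difference in each genotype.

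Cd74, the invariant chain, read 88345 for Nrf2-/- tumor, 81714 for Nrf2+/+ tumor, 64803 for Nrf2-/- non-tumor lung and 49277 for Nrf2+/+ non-tumor lung. It was higher in tumor by 0.79 in Nrf2-/- mice and by 1.18 in Nrf2+/+ mice, and the tissues did not overlap. H2-DMa, the alpha chain of DM, read 4640, 4088, 3668 and 3014 in the same order and was higher in tumor by 0.68 and 0.89, again without overlap. H2-DMb1, a beta chain of DM, read 5106, 4577, 3407 and 3095 on probe A_52_P146877 (0.93 and 1.02) and 24242, 11269, 16684 and 5896 on probe A_51_P278868 (0.88 and 1.39). The second of these probes had overlapping tissues, the first had not.

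**Figure D1:**
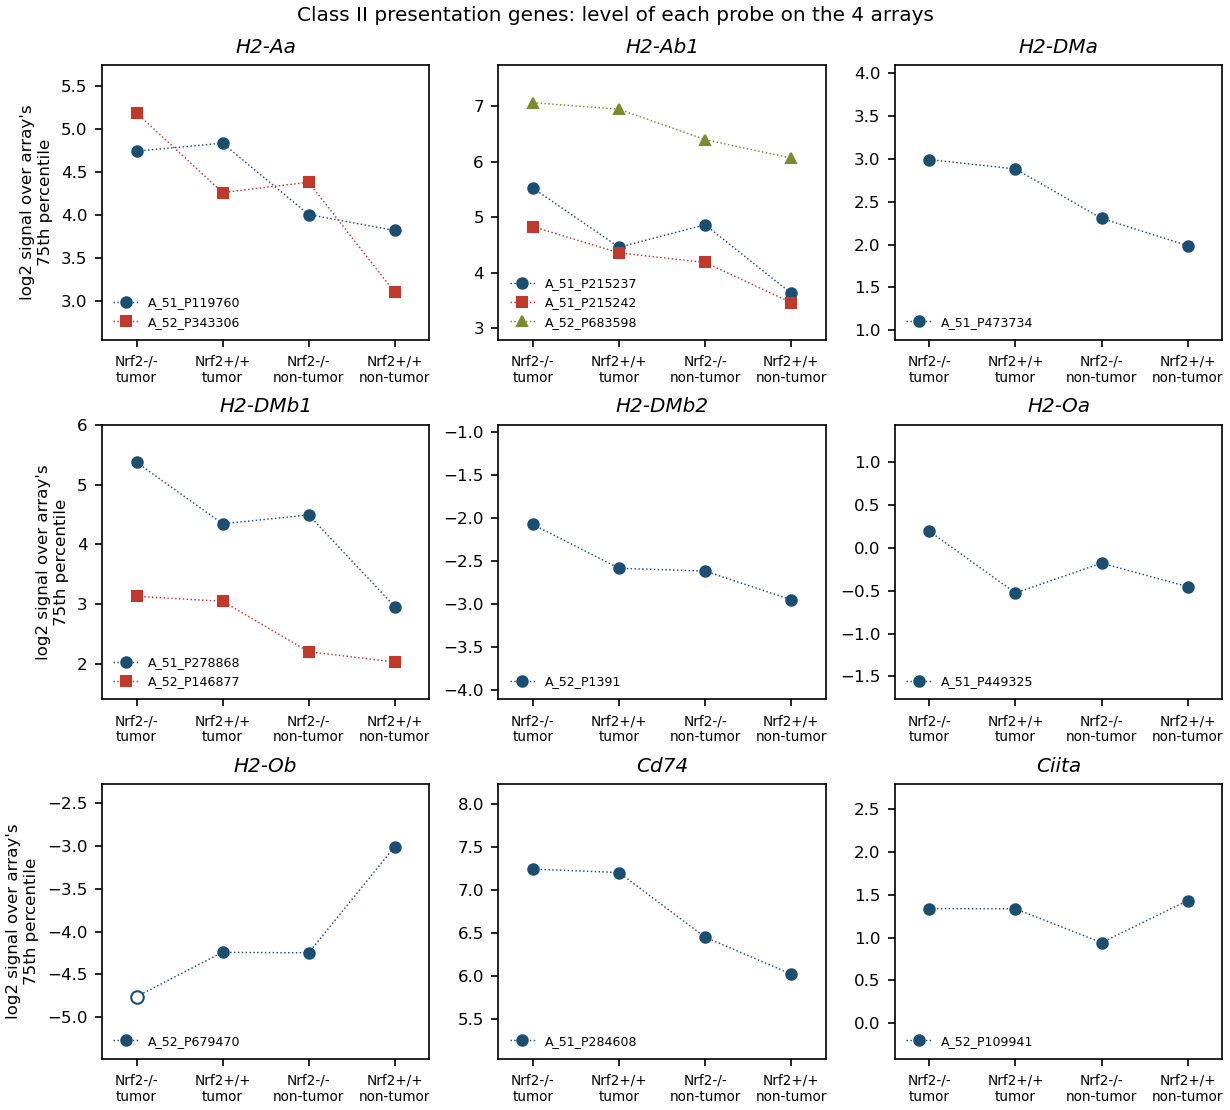
Level of each probe as log2 signal over the array's 75th percentile (vertical axis; scales differ between panels) on the arrays of Nrf2-/- tumor, Nrf2+/+ tumor, Nrf2-/- non-tumor lung and Nrf2+/+ non-tumor lung, 1 array each; an open symbol is a spot not well above background and dotted lines join the points of a probe. H2-Aa, H2-Ab1 and H2-DMb1 each have a probe that drops between Nrf2-/- and Nrf2+/+ pools of a tissue and another that barely does.

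The remaining members behaved in other ways. H2-DMb2, a second beta chain of DM, was dim, with 139 for Nrf2-/- tumor, 92.6 for Nrf2+/+ tumor, 121 for Nrf2-/- non-tumor lung and 98.4 for Nrf2+/+ non-tumor lung, and was higher in tumor by 0.54 and 0.37, in that order of genotypes. H2-Oa, the alpha chain of DO, read 667, 385, 655 and 555 and differed by 0.37 in Nrf2-/- mice and by -0.07 in Nrf2+/+ mice. Its highest scaled level was in Nrf2-/- tumor and its lowest in Nrf2+/+ tumor.

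H2-Ob, the beta chain of DO, was near background and stood below 0. It read 21.6 for Nrf2-/- tumor, where it was not well above background, 29.3 for Nrf2+/+ tumor, 39.0 for Nrf2-/- non-tumor lung and 94.3 for Nrf2+/+ non-tumor lung. In Nrf2+/+ mice it stood at -1.23, lower in tumor (software error 0.36), but at -0.27 with normexp background correction. In Nrf2-/- mice only a bound can be given, at least 1.05-fold lower in tumor, which sets the non-tumor level against the dimmest level that passed as well above background on the tumor array. With normexp the Nrf2-/- difference turned to 0.13, so that a direction for H2-Ob in Nrf2-/- mice is not settled by these signals.

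Ciita, the coactivator, read 1477 for Nrf2-/- tumor, 1401 for Nrf2+/+ tumor, 1425 for Nrf2-/- non-tumor lung and 2048 for Nrf2+/+ non-tumor lung. It was higher in tumor by 0.40 in Nrf2-/- mice and stood at -0.10 in Nrf2+/+ mice. Its highest pool, Nrf2+/+ non-tumor lung, was the pool in which H2-Aa, H2-Ab1, H2-DMa, H2-DMb1 and Cd74 were lowest on every probe. That place of Ciita depends on the scaling, since with median scaling Nrf2+/+ tumor stood above Nrf2+/+ non-tumor lung by 0.20.

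**Figure D2:**
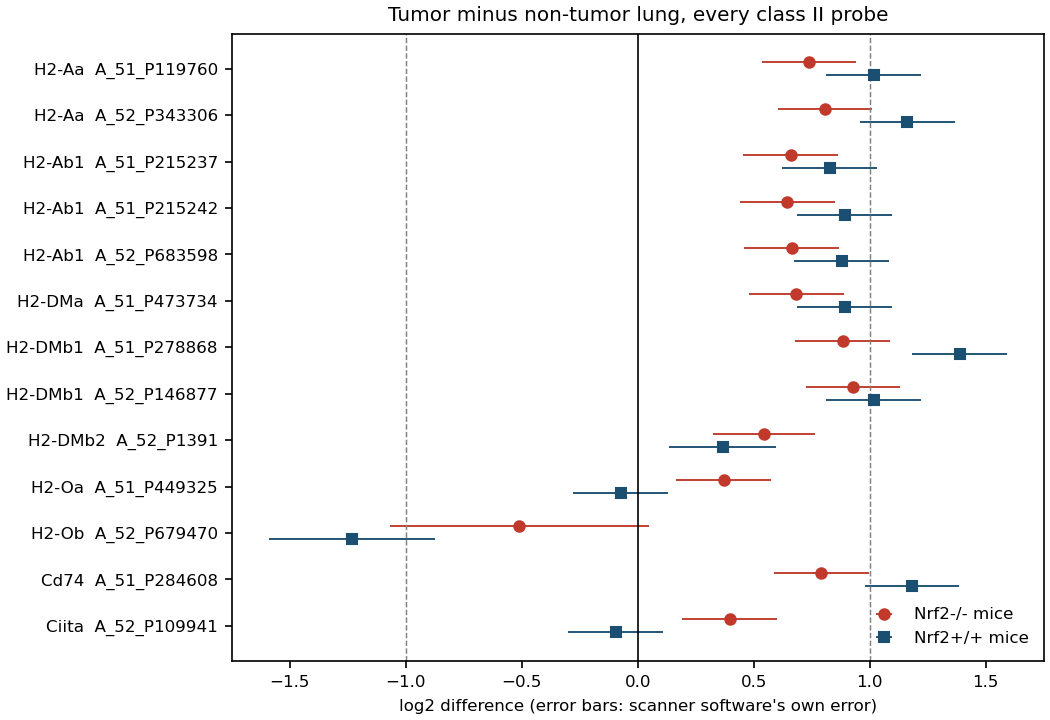
Tumor minus non-tumor lung on the log2 scale for each of the 13 probes (rows), with Nrf2-/- mice as circles above and Nrf2+/+ mice as squares below; bars are the software's own error and dashed lines mark 2-fold. The 9 probes of H2-Aa, H2-Ab1, H2-DMa, H2-DMb1 and Cd74 lie right of 0 in both genotypes, while H2-Ob, not well above background in Nrf2-/- tumor, lies left of it.

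Counted with 1 probe per gene (the brightest over the arrays), none of the 9 genes was 2-fold apart between Nrf2-/- tumor and Nrf2-/- non-tumor lung, where 14.6% of 19425 genes were (5.43% higher and 9.12% lower in tumor), and their median difference was 0.66, beside -0.03 over all genes. Between Nrf2+/+ tumor and Nrf2+/+ non-tumor lung 4 of the 9 were past 2-fold, 3 higher (H2-Aa, H2-DMb1 and Cd74) and 1 lower (H2-Ob), where 23.4% of 19913 genes were (8.08% higher and 15.3% lower); the median was 0.88, beside -0.03 over all genes. In 5 of the 9 genes both tumor pools lay above both non-tumor pools, as they did in 30.4% of all 20553 genes measured, and in none did both lie below, as they did in 33.3%. These counts are close for 2 members: Nrf2+/+ tumor minus Nrf2-/- non-tumor lung was 0.03 for H2-DMb2, one of the 5, and 0.006 for H2-Ob, with software errors of 0.22 and 0.40. With spike-in scaling they were -0.17 and -0.20, so that H2-DMb2 left the first order and H2-Ob entered the second. The spread of all genes (the interquartile range scaled to a standard deviation) was 0.48 in Nrf2-/- and 0.73 in Nrf2+/+ mice.

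The tumor difference was larger in Nrf2+/+ than in Nrf2-/- mice on all 9 probes of the higher genes: the Nrf2-/- difference minus the Nrf2+/+ difference lay between -0.50 and -0.09, with a software error of 0.29. For H2-DMb1 it was -0.50 on probe A_51_P278868 and -0.09 on probe A_52_P146877, and for Cd74 it was -0.39. Differences of all genes were wider in Nrf2+/+ mice too, as the spreads just given show, and the Nrf2+/+ comparison crosses slides. The difference between the genotypes was not tested, since 1 array per group leaves nothing to test it with.

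An additive fit of tissue and genotype, which takes the genotypes as replicates of a tissue, was the only test the design allowed. With limma and Benjamini-Hochberg adjustment over 20553 genes no member passed an adjusted p of 0.05 for tissue, and neither did any other gene (0% called). At an unadjusted p under 0.05 there were 6 members (H2-Aa, H2-Ab1, H2-DMa, H2-DMb1, Cd74 and H2-Ob), beside 29.7% of all genes. Cd74 had a fitted tumor effect of 0.99 ± 0.19 (SE; limma adjusted p = 0.092) and H2-DMb1 one of 1.14 ± 0.21 (limma adjusted p = 0.088). The fit for H2-Ob took the Nrf2-/- tumor spot at its value although it was not well above background; its effect of -0.87 became -0.07 with normexp, and nothing is read from it. The count of 0 for tissue depended on the setting. The same 5 genes, H2-Aa, H2-Ab1, H2-DMa, H2-DMb1 and Cd74, passed when genes dim on any array were left out and when the background was corrected by normexp, and 2, H2-DMb1 and Cd74, passed with median scaling. Many other genes passed with them: 1766 higher and 2086 lower of 16287 genes in the first of these settings, 1478 higher and 1645 lower of 20553 in the second and 1076 higher and 1079 lower in the third.

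The second question was how Nrf2-/- pools differed from Nrf2+/+ pools of the same tissue, and here probes of the same gene disagreed. In both tissues some probes put H2-Aa, H2-Ab1 and H2-DMb1 about 2-fold higher in Nrf2-/- pools, while other probes of these genes showed little difference. H2-Aa probe A_52_P343306 was higher in Nrf2-/- pools by 0.93 in tumor and 1.28 in non-tumor lung, and probe A_51_P119760 stood at -0.09 and 0.19. H2-DMb1 probe A_51_P278868 was higher by 1.03 in tumor and 1.53 in non-tumor lung, and probe A_52_P146877 by 0.08 and 0.17. For H2-Ab1 the 3 probes were spread, with 1.06 and 1.23 on A_51_P215237, 0.47 and 0.72 on A_51_P215242 and 0.12 and 0.33 on A_52_P683598.

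The gap between probes had the same sign in tumor and non-tumor lung. It was 1.02 in tumor and 1.10 in non-tumor lung for H2-Aa, 0.95 and 0.90 for the widest pair of H2-Ab1, and 0.95 and 1.36 for H2-DMb1. The same pairs of probes lay closer in their tumor difference, where they differed by 0.07 in Nrf2-/- and 0.14 in Nrf2+/+ mice for H2-Aa, by -0.005 and -0.05 for H2-Ab1 and by -0.05 and 0.37 for H2-DMb1. The arrays hold 3966 genes with at least 2 probes well above background on all 4 arrays, against which these gaps can be read. In 0.933% of them the gap in the genotype difference reached 2-fold the same way in both tissues, among members H2-Aa alone, and the gap in the tumor difference reached 2-fold the same way in both genotypes in 0.63%, with no member among them. This comparison of probe pairs was chosen after values of the members had been seen. Taking for each gene the smaller of its gaps in the tissues, 0.857% of genes had one as wide as H2-Aa, 1.03% as wide as H2-DMb1 and 1.16% as wide as H2-Ab1, where the median gene had 0.05. All 3 members with more than 1 probe thus lay near the top of that range.

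**Figure D3:**
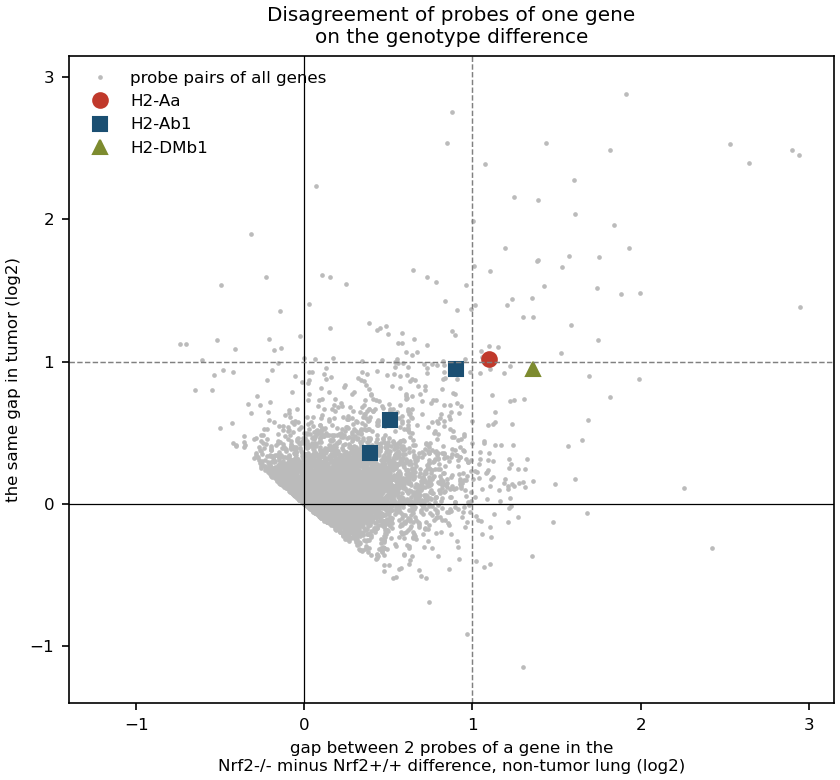
Gap between 2 probes of a gene in the Nrf2-/- minus Nrf2+/+ difference, in non-tumor lung (horizontal axis, log2) and in tumor (vertical axis, log2), for all pairs of probes well above background on all 4 arrays (grey), each pair turned so that its gaps sum to a positive value; dashed lines mark 2-fold. The pair of H2-Aa (circle, 1.10 and 1.02), the pair of H2-DMb1 (triangle, 1.36 and 0.95) and the widest pair of H2-Ab1 (square, 0.90 and 0.95) lie outside the dense cloud around 0, with some pairs of other genes farther out.

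H2-Aa, H2-Ab1, H2-DMb1 and the proteasome gene Psmb8 all lie in the class II region of chromosome 17. The probes of Psmb8 differed less, with 0.79 on A_51_P345366 and 0.31 on A_51_P345367 in tumor and 0.49 and -0.46 in non-tumor lung. The smaller of its gaps in the tissues was 0.48, and 3.78% of genes had one as wide. Sequences of the probes and genotypes of the mice at this region were not used here, so whether sequence variants under a probe have a part in these gaps was not tested.

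Of the 6 members with 1 probe, H2-Ob was past 2-fold between genotypes, in non-tumor lung, and the other 5 were not. Cd74 was higher in Nrf2-/- than in Nrf2+/+ pools by 0.04 in tumor and 0.43 in non-tumor lung, and H2-DMa by 0.11 and 0.32. H2-DMb2 was higher by 0.51 and 0.33, and H2-Oa by 0.72 and 0.27, both within a dim to middling range of signal. Ciita differed by 0.00 in tumor and by -0.49 in non-tumor lung. Between Nrf2-/- and Nrf2+/+ tumor H2-Ob stood at -0.52 (software error 0.59), and at -0.13 with normexp. The bound there, at least 1.05-fold lower in Nrf2-/- tumor, leaves out that error, so a direction in tumor is not settled. In non-tumor lung H2-Ob stood at -1.24 (software error 0.30), which became -0.53 with normexp and was then within 2-fold.

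**Figure D4:**
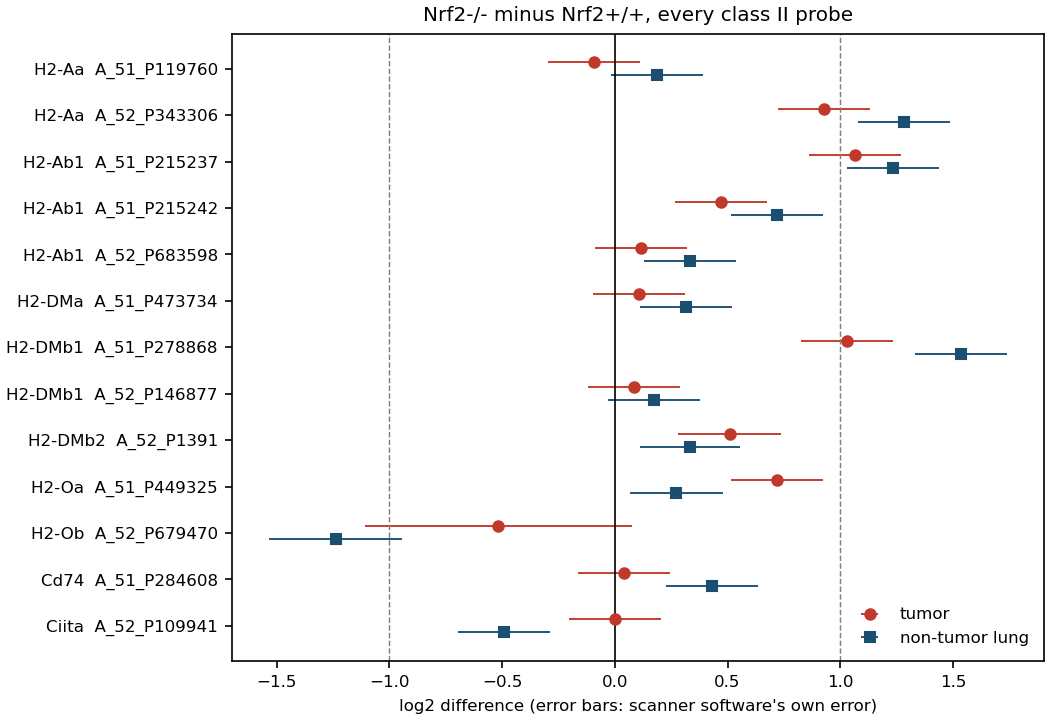
Nrf2-/- minus Nrf2+/+ on the log2 scale for each of the 13 probes (rows), with tumor as circles above and non-tumor lung as squares below; bars are the software's own error and dashed lines mark 2-fold. H2-Aa, H2-Ab1 and H2-DMb1 each have a probe near or past 2-fold in both tissues and another near 0.

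With 1 probe per gene, 1 of the 9 genes was past 2-fold between Nrf2-/- and Nrf2+/+ tumor (H2-DMb1, higher; 7.96% of 17824 genes, 4.29% higher) and 2 were between Nrf2-/- and Nrf2+/+ non-tumor lung (H2-DMb1 higher and H2-Ob lower; 7.65% of 20190 genes, 3.04% higher and 4.61% lower). The medians were 0.11 in tumor and 0.32 in non-tumor lung, beside -0.03 and 0.02 over all genes. Both Nrf2-/- pools lay above both Nrf2+/+ pools for H2-DMb1 and H2-Oa, 2 of 9, where 11% of all genes did. Both lay below them for H2-Ob, where 12.4% did, and the place of H2-Ob rests on the gap of 0.006 given above. The place of H2-DMb1 rests on its brighter probe, A_51_P278868. There Nrf2+/+ tumor minus Nrf2-/- non-tumor lung was -0.15, within the software error of 0.20. On probe A_52_P146877 that difference was 0.84, so the order was not met. When the probes of each gene were averaged no member was past 2-fold in tumor and the median there was 0.42. In the additive fit no member passed for genotype (limma and Benjamini-Hochberg, 0% of all genes called). An unadjusted limma p under 0.05 was reached by 2 members, H2-DMb1 and H2-Ob, beside 9.29% of all genes. The dim H2-Ob spot was again taken at its value. The fitted genotype effect of H2-DMb1 was 1.28 on probe A_51_P278868, which represents the gene, and 0.13 on probe A_52_P146877.

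The genes that act upstream of class II did not share the pattern of the classical chains. The list of 11 genes around the induction of Ciita includes a restrainer of interferon signalling, Socs1. Its tumor difference was 0.65 in Nrf2-/- and 0.19 in Nrf2+/+ mice. With each of the 11 taken on its brightest probe, 1 was at least 2-fold higher in Nrf2-/- tumor than in Nrf2-/- non-tumor lung. On these probes none was past 2-fold either way between Nrf2+/+ tumor and Nrf2+/+ non-tumor lung (list medians 0.14 and -0.29). The 1 gene was Ifng, interferon gamma, with 350 for Nrf2-/- tumor, 96.7 for Nrf2+/+ tumor, 128 for Nrf2-/- non-tumor lung and 155 for Nrf2+/+ non-tumor lung, which stood at 1.80 in Nrf2-/- mice and -0.23 in Nrf2+/+ mice, with much the same values on its other probe. Irf1, which binds the Ciita promoter, stood at -0.11 and -0.64 and was highest in Nrf2+/+ non-tumor lung. The 7 factors that bind the class II promoter module (the RFX and NF-Y subunits and Creb1) were all within 2-fold in all 4 comparisons, with tumor medians of -0.09 and -0.15. Among them Rfx5 was not well above background in either Nrf2-/- pool, with signals of 19.9 in tumor and 25.3 in non-tumor lung. Its differences that involve these pools therefore rest on dim spots.

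Genes that lie between the class II genes on chromosome 17 differed from them as well. Tap1 and Tap2, the peptide transporter of class I presentation, and the immunoproteasome subunits Psmb8 and Psmb9 stood at a median of 0.05 in Nrf2-/- tumor and -0.98 in Nrf2+/+ tumor against non-tumor lung, with Tap1 at 0.11 and -1.08 and Psmb9 at -0.01 and -0.93. All 4 were lower in Nrf2+/+ tumor than in Nrf2+/+ non-tumor lung, 2 of them past 2-fold. H2-Eb2, beside H2-Eb1, was not well above background on any array by either of its probes. No probe was matched to H2-Ea, Btnl2 or Brd2.

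Endosomal processing genes stood mostly on the side of the classical chains. Of 7, 1 was at least 2-fold higher in Nrf2-/- tumor (median 0.49) and 2 were in Nrf2+/+ tumor (median 0.66), and none was 2-fold lower. Ctsd, an aspartic protease of the lysosome, stood at 1.16 in Nrf2-/- and 1.09 in Nrf2+/+ mice, and Ifi30, a thiol reductase that unfolds antigens, at 0.86 and 1.23. Ctss, the cathepsin that trims the invariant chain in antigen-presenting cells, stood at 0.49 and 0.66, and Ctsl at -0.16 and -0.43. Of the 6 genes for turnover and costimulation none was past 2-fold in Nrf2-/- tumor and 1 was lower in Nrf2+/+ tumor. This was Cd40, a receptor through which T cells activate antigen-presenting cells, which stood at -0.97 and -1.49. Marchf8, a ubiquitin ligase for membrane proteins, stood at -1.91 between Nrf2-/- and Nrf2+/+ tumor.

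Markers of the cell types that carry class II lay on different sides. In bulk tissue fewer cells of a type and less RNA per cell cannot be told apart. Alveolar type 2 markers were higher in tumor with 5 of 10 past 2-fold in Nrf2-/- mice (median 0.96) and 7 of 10 in Nrf2+/+ mice (median 1.21), and all 10 were above 0 in both genotypes. Their summed level, in units of each array's 75th percentile, was 1309 for Nrf2-/- tumor, 1239 for Nrf2+/+ tumor, 804 for Nrf2-/- non-tumor lung and 683 for Nrf2+/+ non-tumor lung, and that of the 9 class II genes was 365, 330, 218 and 161 in the same order. Such sums add signals of different probes and are carried by the brightest. Both were highest in Nrf2-/- tumor and lowest in Nrf2+/+ non-tumor lung, as were the sums of the endosomal processing, macrophage and dendritic cell lists.

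Macrophage markers were mixed, with 1 of 11 at least 2-fold higher and none lower in Nrf2-/- tumor (median 0.66), and 3 higher and 2 lower in Nrf2+/+ tumor (median 0.32). C1qa, a complement gene of tissue macrophages, stood at 0.89 and 1.29 and Marco, a scavenger receptor of alveolar macrophages, at -0.88 and -1.61. Their summed level was 320, 278, 249 and 233 in the order of groups used above. Of 8 measured dendritic cell markers none was past 2-fold in Nrf2-/- tumor (median 0.00), and 1 was higher and 1 lower in Nrf2+/+ tumor (median -0.71). The medians include Flt3, not well above background in Nrf2-/- tumor, and Cd209a, not well above it in Nrf2+/+ tumor. They also include Xcr1 at 0.23 and -0.88, which stood at 0.87 and 0.70 on its other probe. Zbtb46, a transcription factor of classical dendritic cells, stood at -0.96 and -1.45, but at 0.75 in Nrf2-/- mice on its other probe, and Itgax, an integrin of dendritic cells and alveolar macrophages, at 0.87 and 0.76. Their summed level was 17.6, 10.71, 11.4 and 7.74 in the same order, and Siglech was below background throughout.

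Of 8 measured B cell markers 1 was higher in Nrf2-/- tumor and none lower (median -0.28), and 5 were lower in Nrf2+/+ tumor (median -1.24). Ms4a1, a surface protein of B cells, stood at -0.48 and -1.36, and Pax5 was below background on every array. Their summed level was 8.96, 7.38, 6.999 and 9.31. Cd79b, a signalling chain of the B cell receptor, stood at 0.22 and -0.05. Fcer2a, the low-affinity IgE receptor, went the other way in Nrf2-/- tumor (1.92). T cell markers had tumor medians of -0.19 and -0.48 with none of 7 past 2-fold, and their summed level was 8.11, 4.43, 8.97 and 6.03, with Cd4 below background on every array. Endothelial markers were lower, 5 of 6 in Nrf2-/- tumor and 6 of 6 in Nrf2+/+ tumor (medians -1.10 and -1.54). The 4 leukocyte genes had medians of 0.07 and -0.23. Between genotypes, T cell markers stood at a median of 0.86 in tumor and 0.47 in non-tumor lung, and B cell markers at 0.41 and -0.45. The part of any of these cell types in the class II differences was not tested.

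**Figure D5:**
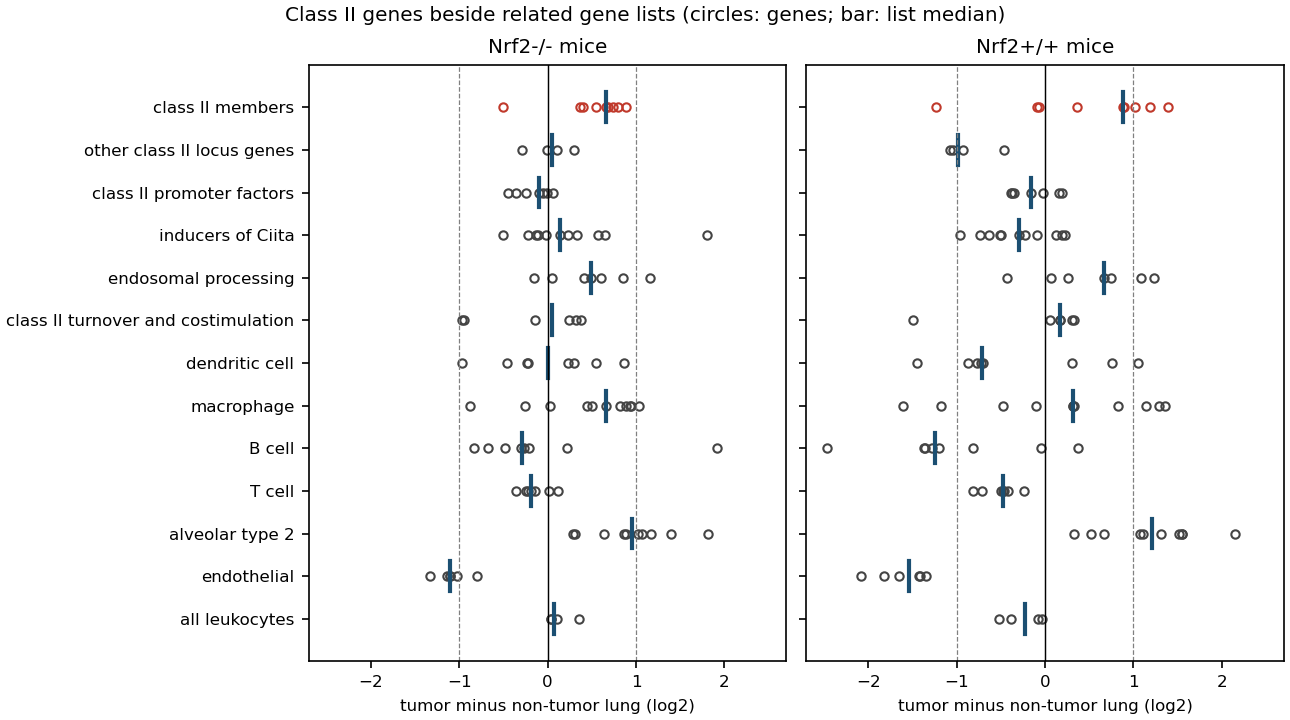
Tumor minus non-tumor lung (horizontal axis, log2) in Nrf2-/- mice (left) and Nrf2+/+ mice (right) for the 9 class II members and for the members of 12 related gene lists (rows) that passed the background flag on 1 array or more; circles are genes, bars are list medians and dashed lines mark 2-fold. The class II median (0.66 and 0.88) lies on the side of the type 2, macrophage and processing lists, and B cell and endothelial lists lie on the other side in both genotypes.

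Genes that resembled the classical chains over the 4 arrays were sought among 3185 genes with a symbol, well above background on all arrays and with a range of at least 1. Likeness was the Euclidean distance between the 4 levels of a gene, centred on their mean, and the mean centred levels of H2-Aa, H2-Ab1 and Cd74. The nearest were Ssr4, a subunit of the translocon-associated complex (distance 0.040), 1700017B05Rik (0.048), the phosphatase gene Ppm1h (0.056), the receptor adaptor gene Tradd (0.071), Acp5, the tartrate-resistant acid phosphatase (0.071), and Col11a2, a fibrillar collagen chain (0.076). H2-DMa, the nearest other member, stood at 0.11, H2-DMb2 at 0.55, H2-Oa at 0.88, Ciita at 0.92, H2-DMb1 at 1.15 on its brighter probe and H2-Ob at 2.10. The 4 arrays give only 4 points to each profile.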

How the data were processed

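Gene expression was measured on 4 one-colour Agilent arrays, 1 per group, each with 500 ng of Cy3-labelled RNA pooled from 8 mice, per the labels' protocols. Each deposited value is a linear spot intensity, background-subtracted and detrended by Agilent Feature Extraction 10.7.3.1 with array annotation on build mm9, per the file headers; background and outlier flags came with each spot in the deposited files. The submitters' value table equalled the processed signal within rounding on all 45018 spots (100%), so its scale was linear and uncentred; its columns had medians of 44.3, 41.8, 61.9 and 71.0 for Nrf2-/- tumor, Nrf2+/+ tumor, Nrf2-/- non-tumor lung and Nrf2+/+ non-tumor lung.

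From these, signals were put on the log2 scale and the 75th percentile of the non-control spots of the array was subtracted, flagged spots were left out, and spots of a probe were averaged. Of 41174 probes, 4 lost all spots on an array. Symbols came from RefSeq (GRCm38.p6) by transcript accession for 26686 probes; the other 14484 were counted by the name in the file. A gene was represented by its brightest probe. Counts at 2-fold cover genes that either array of a comparison showed well above background. The additive fit used limma 3.58.1 in R 4.3.3, over genes that any array showed well above background, and was tested on simulated data; Python 3.11.15 did the rest. Normexp used the median spot signal, since the files hold no mean. Spike-in scaling used 5 probes above 1000 units. The alternatives tried are given in the closing section. The number of arrays limits the precision. The genes named are the 10 members, the 6 nearest in likeness, the targeted gene and examples from the lists that passed 2-fold in a comparison; other list genes were named after their values were seen. The members and lists were chosen with earlier results of these data known.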

Additional observations from a re-analysis of the deposited data

Results flagged for a closer look

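Among members well above background on all 4 arrays, 3 had differences of opposite sign in the groups compared, which were not tested. Ciita was 0.40 in Nrf2-/- and -0.10 in Nrf2+/+ mice for tumor against non-tumor lung, a difference of 0.49, with a software error of 0.29; by the same arithmetic its genotype difference in tumor exceeded that in non-tumor lung by 0.49. H2-Oa was 0.37 in Nrf2-/- and -0.07 in Nrf2+/+ mice, a difference of 0.45. With median scaling the Nrf2+/+ values of Ciita and H2-Oa were above 0 as well, at 0.20 and 0.22. H2-Aa on probe A_51_P119760 was -0.09 between Nrf2-/- and Nrf2+/+ tumor and 0.19 between Nrf2-/- and Nrf2+/+ non-tumor lung, a difference of -0.28, which lies within the software error of 0.29. Each contrast includes the Nrf2+/+ non-tumor array, alone on its slide.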

How the results depend on the processing

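No paired analysis was possible because no groups share a replicate number in the labels: the source names count the 4 arrays on across groups of 1 array each. The additive fit already compares tissues within genotype. The median of the 9 members was above 0 in all 4 comparisons under all 7 alternatives. In Nrf2-/- mice the tumor median of 0.66 became 0.38 with spike-in scaling, and the count past 2-fold 1 with median scaling. In Nrf2+/+ mice the tumor median of 0.88 became 1.17 with median scaling, 0.60 with quantile normalization and 0.64 with spike-in scaling, and the count of 4 became 1 with quantile normalization and 2 with spike-in scaling and with normexp. The all-gene median shifted by 0.14 in Nrf2-/- and 0.29 in Nrf2+/+ mice with median scaling and by -0.28 and -0.24 with spike-in scaling, which move every gene of an array alike. Relative to it the members stood at 0.70 and 0.91 as reported, at 0.57 and 0.60 with quantile normalization and at 0.59 and 0.79 with normexp. Of genes past 2-fold, 37.3% were higher in Nrf2-/- tumor and 34.5% in Nrf2+/+ tumor, against 48.1% and 55.1% with median scaling, 21.1% and 22.2% with spike-in scaling and 58.0% and 48.8% with normexp. Between Nrf2-/- and Nrf2+/+ non-tumor lung it was 39.7%, and 51.6% with median scaling. For genotype in tumor the count of 1 became 0 with quantile normalization, spike-in scaling and the mean of all probes, which gave a median of 0.42; in non-tumor lung the count of 2 became 1 with normexp, the mean of all probes and genes bright on all 4 arrays, where H2-Ob is left out. The additive fit for tissue called 2 members with median scaling and 5 with normexp and with genes bright on all 4 arrays. Over all genes, where it called 0, it called 1076 higher and 1079 lower in tumor with median scaling, 253 and 1272 with spike-in scaling, 1478 and 1645 with normexp and 1766 and 2086 with genes bright on all 4 arrays; for genotype, with no member among them, median scaling gave 37 higher and 41 lower, normexp 24 and 28, and genes bright on all 4 arrays 73 and 77. The causes were not tested. Of the values for single genes, 208 moved by less than the software's error and 40 by more, none reversing a difference larger than it; H2-Ob turned to 0.13 in Nrf2-/- mice with normexp, against -0.51 (software error 0.56). Slide could not be fitted as a block, which would leave no residual degree of freedom. H2-Ob is near background: with normexp it stood at -0.27 for tumor in Nrf2+/+ mice and at -0.53 for genotype in non-tumor lung, against -1.23 and -1.24, which ends both 2-fold calls.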
